A study of Homo sapiens with 18 samples.

Results

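The 10 genes described here encode proteins that decide between survival and death of a cell: BCL2, BCL2L1, MCL1, BCL2A1, BCL2L11, BMF, BBC3, PMAIP1, BAX and BIRC7. They were taken by symbol from the 58870 genes of the count table, and each symbol matched a single gene identifier. The question is how their mRNA levels differed between 3 melanoma cell lines and between cells overexpressing MAFG and cells overexpressing GFP.

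Mitochondrial apoptosis is set by the balance of BCL2 family proteins. BCL2, BCL2L1 (BCL-XL), MCL1 and BCL2A1 (BFL-1) are the pro-survival members, which hold the effectors BAX and BAK1 inactive. BCL2L11 (BIM), BMF, BBC3 (PUMA) and PMAIP1 (NOXA) are BH3-only proteins, which bind the pro-survival members and free or activate the effectors, so that the outer mitochondrial membrane is permeabilized and caspases are switched on. BIRC7 (livin, ML-IAP) belongs to a different family, the inhibitor of apoptosis proteins, and is known for its expression in melanoma. BCL2, BCL2A1 and BIRC7 are known targets of MITF, the master transcription factor of the melanocyte lineage, and BCL2L11 and BMF are known in melanoma for their regulation downstream of the MAPK pathway. MAFG is a small MAF protein, a basic leucine zipper factor without an activation domain of its own that binds DNA as a dimer.

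RNA-seq was performed on WM164, SKMEL28 and A375 melanoma cells overexpressing either MAFG or the control protein GFP, with 3 libraries in each of the 6 conditions and 18 in all. Per the study's methods, MAFG with a Myc-DDK tag or GFP was delivered by lentivirus, driven by the EF1α promoter, and cells were selected with blasticidin, so that control cells too carried a vector and had been selected. All cells were grown in RPMI with 5% FBS. Each line stands for a single tumor, and nothing states that the 3 libraries of a condition came from separate cultures, so the p-values measure the spread between libraries, which may be technical.

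The libraries held 20122172 to 39025042 counts, and replicate libraries correlated at 0.986 to 0.996 over log2 CPM values. Levels of a gene are given as CPM, the count scaled to the TMM-normalized size of the library over all 18 libraries, and levels of different genes are compared only in TPM, which is also scaled to transcript length. In WM164 and SKMEL28, 7 of 7 melanocyte lineage markers were above 1 TPM in every library, whereas A375 had 2 of 7, and MLANA, TYR and DCT were listed at 0 in all A375 libraries. Summed markers of epithelium, leukocytes and endothelium reached at most 1.1 TPM in any library, and those of fibroblasts 2.28 to 12.7 TPM. Summed AXL, NGFR and EGFR, which mark dedifferentiated melanoma, were at 107 to 141 TPM in A375 and at most 9.90 TPM in WM164 and 20.2 TPM in SKMEL28. Of these 3 markers, 2 were above 1 TPM in every A375 library, 1 in every SKMEL28 library and 0 in every WM164 library. A375 MAFG replicate 1 stood farthest from its replicates (mean chi-square per gene of 68.7 and 96.7, near 1 under sampling noise), and leaving it out left the count of the 10 genes called in A375 at 0. MAFG mRNA was 1.04 log2 units higher with MAFG overexpression in WM164, 0.64 in SKMEL28 and 0.80 in A375, where the change in counts did not pass the test (adjusted p = 0.0655, edgeR). In TPM, MAFG went from 2.50 to 3.51 with GFP to 20.9 to 27.5 with MAFG in WM164, from 3.23 to 4.43 to 14.1 to 19.4 in SKMEL28 and from 3.94 to 4.52 to 22.4 to 28.2 in A375, without overlap in any line. MITF was higher in WM164 and SKMEL28 than in A375 cells overexpressing GFP by 3.94 and 4.50 log2 units.

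The promoters of the MITF targets BCL2A1 and BIRC7 are shown because these genes fell with MAFG in both MITF-high lines and were not detected in A375. The sequences are the 250 bases before the RefSeq start (GRCh38.p14), written 5′ to 3′ along the gene, chr15:79971197-79971446 on the minus strand for BCL2A1 and chr20:63235655-63235904 on the plus strand for BIRC7. Capitals mark the E-box letters CATGTG and CACGTG, the kinds of sequence bound by MITF.
BCL2A1: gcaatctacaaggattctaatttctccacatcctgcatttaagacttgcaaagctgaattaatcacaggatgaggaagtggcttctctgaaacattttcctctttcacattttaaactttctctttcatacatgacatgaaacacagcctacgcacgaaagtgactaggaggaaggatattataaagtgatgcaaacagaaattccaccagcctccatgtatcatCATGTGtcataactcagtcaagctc
BIRC7: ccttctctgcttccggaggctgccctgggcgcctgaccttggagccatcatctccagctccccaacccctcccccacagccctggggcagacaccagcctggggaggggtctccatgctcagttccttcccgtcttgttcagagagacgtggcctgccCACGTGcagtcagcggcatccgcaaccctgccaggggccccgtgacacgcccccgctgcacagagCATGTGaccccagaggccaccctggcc
CATGTG began 25 bases before the start in BCL2A1 and 27 bases before it in BIRC7, and CACGTG began 92 bases before the start in BIRC7. CATGTG was found on either strand in 9.42% and CACGTG in 6.34% of 35116 RefSeq promoters of this length. Of the 9 genes with an entry, 2 held CATGTG, and 3 held CACGTG, namely BIRC7, BAX with 4 matches within 138 bases of its start, and BBC3. TGCTGA, the letters of a half-site of a MAF recognition element, was present in 14.0% of all promoters and in 1 promoter of BMF, at 155 bases before the start and in reverse complement at 66 bases. These are matches of letters and no measurement of binding. The BCL2 promoter held none of these letters, and MCL1 had no entry.

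With MAFG overexpression, BCL2A1 and BIRC7 were lower in WM164 and SKMEL28, BCL2L1 was lower and MCL1 higher in WM164, and BMF was more than 2-fold lower in SKMEL28. In WM164, 7 of the 10 genes passed an adjusted p of 0.05 (edgeR quasi-likelihood test, Benjamini-Hochberg adjustment over all genes tested), 6 lower and 1 higher, beside 15.6% of all 15919 tested genes lower and 16.2% higher. In SKMEL28, 5 of the 10 genes were lower and 0 higher, beside 15.3% of 15523 genes lower and 14.6% higher. With a further limit of a 2-fold change, 1 gene (BCL2A1) remained in WM164 and 2 (BCL2A1 and BMF) in SKMEL28, beside 6.94% and 4.74% of all genes. In A375, 7 of the 10 genes had enough counts to be tested and 0 passed, beside 0.78% of 15779 genes higher, 0.0634% lower and 0.665% past the fold limit as well. None of these 7 had an unadjusted p under 0.05, the lowest being 0.0911 for BAX, and DESeq2 also called 0. Over the tested genes the median log2 fold change came to -0.37 for WM164, -0.35 for SKMEL28 and -0.09 for A375, beside medians over all genes of -0.0015, -0.0080 and -0.0004. Apart from the 2-fold limit, the calls that held under every alternative tried were those of BCL2A1, BCL2L1 and MCL1 in WM164 and of BCL2A1, BMF and BIRC7 in SKMEL28, where BMF was too low for the TPM scales.

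**Figure D1:**
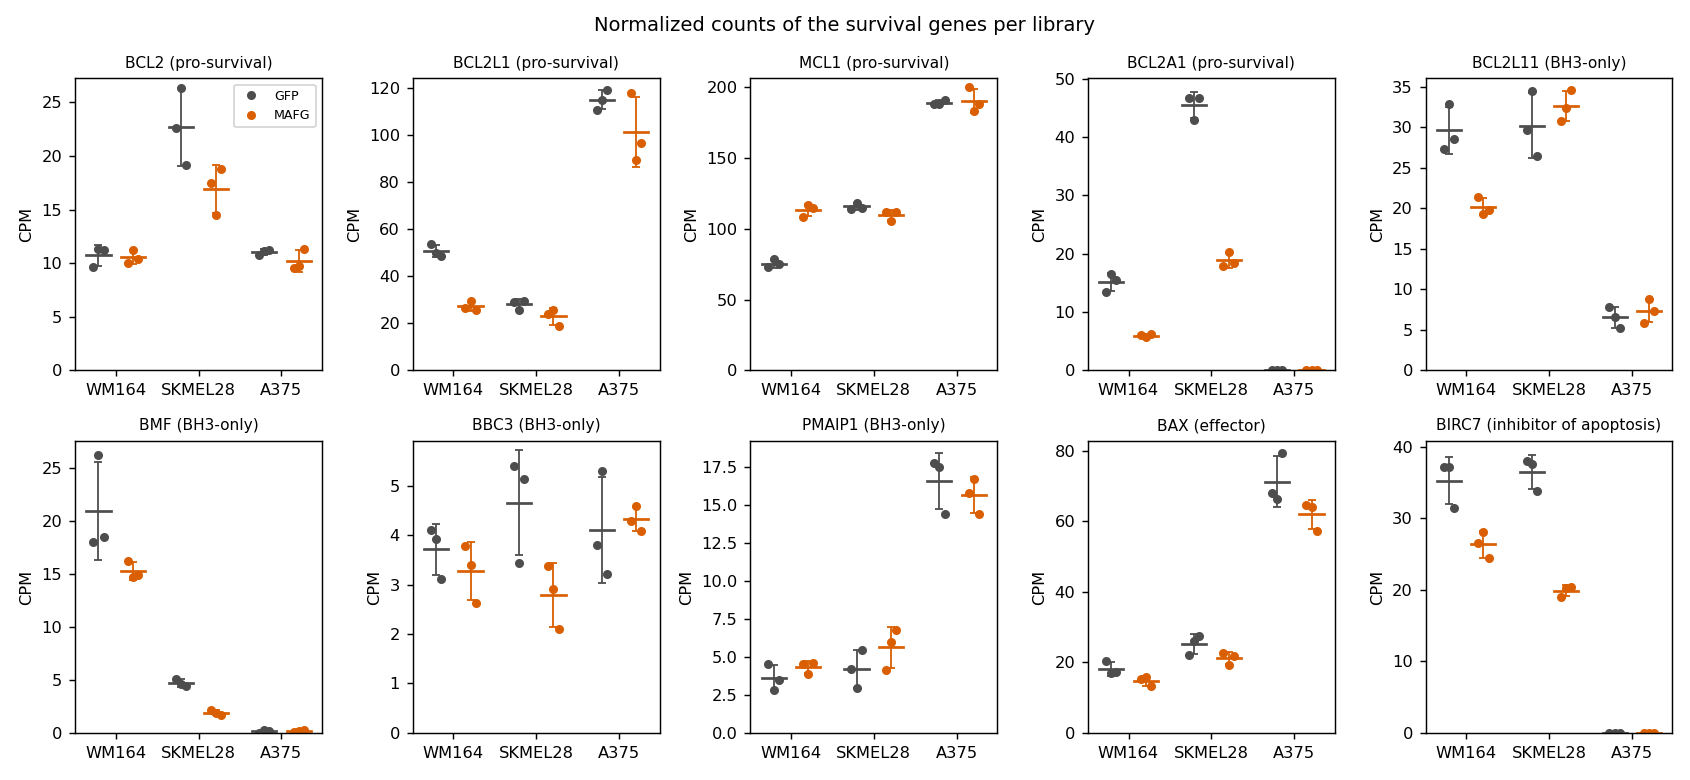
Normalized counts (CPM, linear axis from 0) of each of the 10 genes in the 18 libraries, with GFP in grey and MAFG in orange. Points are libraries, horizontal lines are means and bars are SDs (n = 3). BCL2A1 and BIRC7 are at 0 in the 6 A375 libraries, and their MAFG libraries lie below their GFP libraries in WM164 and SKMEL28.

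BCL2A1 (ENSG00000140379.8, chromosome 15 from 79960892 to 79971196 of GRCh38), a pro-survival gene that in melanocytes depends on MITF, fell in both lines that expressed it. In WM164, the GFP libraries were at 13.4, 16.5 and 15.4 CPM and the MAFG libraries at 6.02, 5.62 and 6.18 CPM. In SKMEL28, the GFP libraries were at 46.7, 43.0 and 46.7 CPM and the MAFG libraries at 17.9, 20.3 and 18.4 CPM. Every MAFG library was below every GFP library in each line, and the MAFG libraries of SKMEL28 were still above the GFP libraries of WM164. BCL2A1 mRNA was 2.54-fold lower in WM164 (log2 fold change -1.35, standard error 0.12, adjusted p = 8.78e-08, edgeR) and 2.41-fold lower in SKMEL28 (log2 fold change -1.27, standard error 0.08, adjusted p = 1.45e-08, edgeR). These responses differed by -0.08 log2 units with a 95% interval from -0.42 to 0.27 (adjusted p = 0.865, edgeR). All 6 A375 libraries had 0 counts. In bulk RNA, fewer cells expressing a gene and less RNA per cell cannot be told apart. Against a floor of 3 counts in each library, BCL2A1 was at least 186-fold higher in WM164 and at least 560-fold higher in SKMEL28 than in A375 cells overexpressing GFP.

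BIRC7 (ENSG00000101197.13, chromosome 20 from 63235883 to 63240495) had the same order of lines without the gap between WM164 and SKMEL28. In WM164, it was at 37.1, 37.2 and 31.5 CPM in the GFP libraries and at 26.6, 28.1 and 24.4 CPM in the MAFG libraries. In SKMEL28, it was at 38.1, 37.6 and 33.8 CPM with GFP and at 19.0, 20.3 and 20.4 CPM with MAFG. MAFG and GFP libraries did not overlap in CPM in either line. In TPM the WM164 libraries did, with 16.04 to 19.97 TPM with GFP and 12.94 to 16.05 TPM with MAFG. The GFP cells of the 2 lines differed by -0.05 log2 units (WM164 minus SKMEL28, 95% interval -0.27 to 0.18, adjusted p = 0.732, edgeR). On the log2(TPM + 1) scale the same difference was -0.57 (adjusted p = 0.000301, limma), where the median over all genes was also lower in WM164 (-0.42). BIRC7 was 1.34-fold lower with MAFG in WM164 (log2 fold change -0.42, standard error 0.09, adjusted p = 0.00112, edgeR) and 1.83-fold lower in SKMEL28 (log2 fold change -0.87, standard error 0.08, adjusted p = 1.16e-06, edgeR). The WM164 change did not pass on the TPM scales (adjusted p of 0.211 and 0.215, limma). The difference between the responses, 0.45 log2 units (standard error 0.15), missed the threshold (adjusted p = 0.0566, edgeR) and passed it with DESeq2 (adjusted p = 0.0300). In A375, 0 counts were found in all 6 libraries, which places BIRC7 at least 434-fold higher in WM164 and at least 449-fold higher in SKMEL28 cells overexpressing GFP.

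BCL2 (ENSG00000171791.13, chromosome 18 from 63123346 to 63320128), the founding pro-survival gene and the third known MITF target, did not share this pattern. WM164 libraries were at 9.60, 11.3 and 11.3 CPM with GFP and at 9.97, 11.2 and 10.4 CPM with MAFG, and these values overlapped (log2 fold change -0.03, 95% interval -0.27 to 0.22, adjusted p = 0.894, edgeR). SKMEL28 libraries were at 22.7, 26.4 and 19.1 CPM with GFP and at 17.5, 14.5 and 18.8 CPM with MAFG. The 2 conditions of SKMEL28 did not overlap, although the closest libraries were 19.1 and 18.8 CPM. BCL2 was 1.34-fold lower with MAFG in SKMEL28 (log2 fold change -0.42, standard error 0.12, adjusted p = 0.0163, edgeR). This call was lost without GFP replicate 1, GFP replicate 2 or MAFG replicate 2 (adjusted p of 0.0511, 0.0829 and 0.0946, edgeR). A375 expressed BCL2 at 10.8, 11.1 and 11.2 CPM with GFP and at 9.55, 9.70 and 11.3 CPM with MAFG, so unlike BCL2A1 and BIRC7 it was present in the MITF-low line at about the level of WM164.

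BCL2L1 (ENSG00000171552.13, chromosome 20 from 31664452 to 31723989), which encodes the pro-survival protein BCL-XL, fell in WM164. Its GFP libraries were at 53.4, 49.8 and 48.6 CPM and its MAFG libraries at 26.6, 29.4 and 25.5 CPM, with no overlap. This is a 1.86-fold lower level (log2 fold change -0.90, standard error 0.08, adjusted p = 6.37e-08, edgeR). In SKMEL28, the values were 28.9, 25.4 and 29.4 CPM with GFP and 23.8, 25.8 and 19.0 CPM with MAFG, which overlapped, and the log2 fold change of -0.29 (standard error 0.11) missed the threshold at an adjusted p of 0.0522 from edgeR and passed it under 6 of 14 alternatives. A375 had the highest level, 111, 115 and 119 CPM with GFP and 118, 89.4 and 96.4 CPM with MAFG (log2 fold change -0.19, adjusted p = 0.955, edgeR). In TPM the A375 libraries did not overlap, with 38.39 to 42.87 TPM with GFP and 31.28 to 32.45 TPM with MAFG. The log2(TPM + 1) change in A375 was -0.33 (-0.22 after the median over genes was subtracted, adjusted p = 0.966, limma). On the opposite strand, the annotated gene ABALON covers 41.3% of the exon bases of BCL2L1, and it had at most 25 counts in a library.

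MCL1 (ENSG00000143384.13, chromosome 1 from 150560895 to 150579738), whose short-lived pro-survival protein is bound by NOXA among others, was the single gene of the 10 that rose. In WM164, the GFP libraries were at 72.6, 78.4 and 75.1 CPM and the MAFG libraries at 108, 117 and 115 CPM. The conditions did not overlap, and MCL1 was 1.503-fold higher with MAFG (log2 fold change 0.59, standard error 0.06, adjusted p = 3.54e-07, edgeR). In SKMEL28, it was at 114, 118 and 115 CPM with GFP and at 112, 106 and 112 CPM with MAFG (log2 fold change -0.07, 95% interval -0.19 to 0.05, adjusted p = 0.362, edgeR). In A375, it was at 188, 188 and 191 CPM with GFP and at 200, 184 and 188 CPM with MAFG (log2 fold change 0.005, 95% interval -0.19 to 0.20, adjusted p = 0.997, edgeR). WM164 had the lowest MCL1 level of the lines with GFP, and in CPM its MAFG libraries reached the range of SKMEL28. In TPM its MAFG libraries, at 19.18 to 22.7, were below the SKMEL28 GFP libraries (25.47 to 29.82). They overlapped the SKMEL28 MAFG libraries (21.56 to 23.42 TPM). The neighbour ADAMTSL4 shares 43 exon bases with MCL1 on the opposite strand and rose from 14 to 35 counts with GFP to 141 to 204 counts with MAFG in WM164, while MCL1 went from 1900 to 2364 counts to 3096 to 3715 counts. Its part in the MCL1 change was not tested.

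The share of each pro-survival gene was compared within a library from the TPM values of BCL2, BCL2L1, MCL1 and BCL2A1, as a description without a test. In WM164, MCL1 made up 30.0% ± 0.759 of the summed TPM with GFP and 56.3% ± 0.834 with MAFG (SD, n = 3), while BCL2A1 went from 34.3% ± 2.84 to 17.0% ± 1.45 and BCL2L1 from 32.2% ± 2.68 to 23.5% ± 1.20. In GFP cells of this line the 3 genes were nearly equal, and with MAFG the share of MCL1 exceeded that of the other genes together in each library. In SKMEL28, BCL2A1 made up 58.6% ± 1.54 with GFP and 40.0% ± 2.05 with MAFG, when MCL1 was at 40.2% ± 2.86. The summed TPM in SKMEL28 went from 104 ± 2.44 to 55.6 ± 3.50, and in WM164 from 40.8 ± 4.93 to 36.2 ± 3.01, where the libraries overlapped. In A375 the sum went from 86.7 ± 5.72 to 74.6 ± 4.56, without overlap of the libraries. On log2(TPM + 1) the median of all genes itself moved with MAFG, by -0.14 in SKMEL28, 0.14 in WM164 and -0.10 in A375. These sums were not corrected for that shift. In A375 counts, BCL2 (log2 fold change -0.12), BCL2L1 (-0.19) and MCL1 (0.005) did not pass the test. A375 had no BCL2A1, and MCL1 with 50.1% and BCL2L1 with 46.4% made up nearly all of the sum in GFP cells. BCL2 stayed between 2.52% and 5.46% on average in the 6 conditions.

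**Figure D2:**
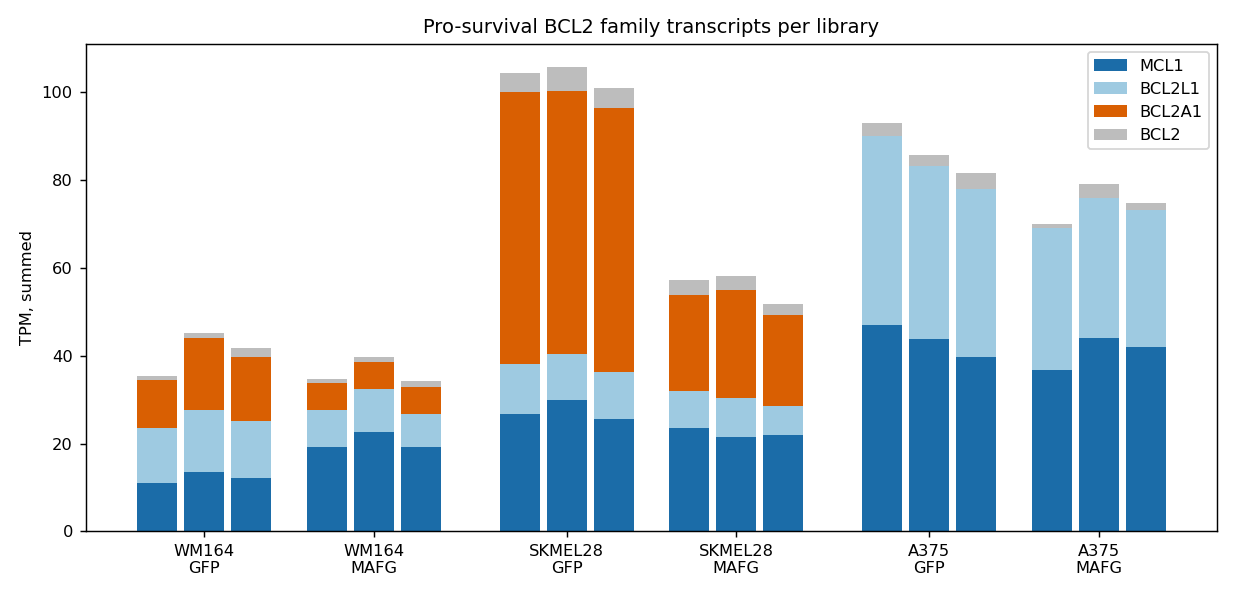
Summed TPM (linear axis from 0) of the 4 pro-survival genes in each of the 18 libraries, stacked by gene, 1 bar per library. The orange BCL2A1 block takes 58.6% of the bar on average in SKMEL28 GFP libraries and 40.0% in SKMEL28 MAFG libraries, and is absent from A375.

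Among the BH3-only genes, BMF (ENSG00000104081.14, chromosome 15 from 40087890 to 40108892), a sensor linked to the cytoskeleton, differed most. In SKMEL28, it was at 5.10, 4.58 and 4.45 CPM with GFP and at 2.17, 1.90 and 1.65 CPM with MAFG, without overlap. This 2.46-fold lower level (log2 fold change -1.30, standard error 0.22, adjusted p = 0.00029, edgeR) was the largest change of a BH3-only gene. In WM164, BMF was at 18.03, 26.2 and 18.5 CPM with GFP and at 16.2, 14.7 and 14.9 CPM with MAFG. Again no library overlapped, and the log2 fold change of -0.45 passed the test (standard error 0.12, adjusted p = 0.00864, edgeR). Without the highest library, GFP replicate 2, the log2 fold change was -0.26 and the call was lost (adjusted p = 0.0705, edgeR). It was also lost in the model of all 18 libraries (adjusted p = 0.229, edgeR) and on log2(TPM + 1) (-0.19, adjusted p = 0.462, limma), and in TPM the libraries overlapped. A375 had at most 0.302 CPM of BMF in a library, too few for a test.

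BCL2L11 (ENSG00000153094.23, chromosome 2 from 111119378 to 111168444), which encodes BIM, the BH3-only protein able to engage all pro-survival members, fell in WM164 counts. The GFP libraries were at 27.3, 32.9 and 28.6 CPM and the MAFG libraries at 21.3, 19.3 and 19.8 CPM (log2 fold change -0.56, standard error 0.09, adjusted p = 9.93e-05, edgeR). The conditions did not overlap in CPM. In TPM they did, with 4.26 to 5.47 TPM with GFP and 3.47 to 4.76 TPM with MAFG, and the log2(TPM + 1) change was -0.12 (-0.26 after the median over genes was subtracted, adjusted p = 0.618, limma). SKMEL28 was at 29.6, 34.5 and 26.5 CPM with GFP and at 30.8, 32.4 and 34.6 CPM with MAFG (log2 fold change 0.12, adjusted p = 0.392, edgeR). A375 was lowest, from 5.22 to 7.85 CPM with GFP and from 5.89 to 8.77 CPM with MAFG. MIR4435-2HG, on the opposite strand, covers 10.8% of the exon bases of BCL2L11 and changed by 0.16 log2 units in WM164 (adjusted p = 0.161, edgeR).

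BBC3 and PMAIP1, both p53 targets, passed in 1 of 6 tests over the 3 lines. BBC3 (ENSG00000105327.17, chromosome 19 from 47220822 to 47232766) was at 5.40, 3.44 and 5.14 CPM in SKMEL28 with GFP and at 3.37, 2.91 and 2.10 CPM with MAFG. The log2 fold change was -0.74 (standard error 0.24, adjusted p = 0.0262, edgeR). The closest libraries, 3.44 and 3.37 CPM, did not overlap, and the call was lost without any of GFP replicate 1, GFP replicate 3, MAFG replicate 2 and MAFG replicate 3 (adjusted p from 0.0544 to 0.125, edgeR). In WM164, BBC3 was between 3.12 and 4.11 CPM with GFP and between 2.63 and 3.78 CPM with MAFG (log2 fold change -0.19, 95% interval -0.64 to 0.26, adjusted p = 0.555, edgeR). PMAIP1 (ENSG00000141682.11, chromosome 18 from 59899996 to 59904305) had a positive log2 fold change of 0.26 in WM164 and 0.40 in SKMEL28 that did not pass (adjusted p of 0.369 and 0.222, edgeR), and its GFP and MAFG libraries overlapped in all 3 lines. In A375 it was at 14.5 to 17.8 CPM with GFP, against 2.82 to 4.53 CPM in WM164 and 2.95 to 5.49 CPM in SKMEL28.

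BAX (ENSG00000087088.20, chromosome 19 from 48954815 to 48961798), which forms the pore in the outer mitochondrial membrane, had negative log2 fold changes in all 3 lines, of which 1 passed. In WM164, it was at 20.5, 16.9 and 17.3 CPM with GFP and at 15.2, 15.7 and 13.2 CPM with MAFG (log2 fold change -0.31, standard error 0.11, adjusted p = 0.0318, edgeR). The libraries did not overlap, but the call was lost with DESeq2 (adjusted p = 0.0656) and without GFP replicate 1, MAFG replicate 1 or MAFG replicate 3 (adjusted p of 0.151, 0.0546 and 0.120, edgeR). It was also lost in the model of all 18 libraries (adjusted p = 0.0718, edgeR) and on log2(TPM + 1) (-0.14, adjusted p = 0.443, limma), and in TPM the libraries overlapped. In SKMEL28, it was at 22.02, 26.1 and 27.5 CPM with GFP and at 22.7, 19.3 and 21.7 CPM with MAFG, with overlap (log2 fold change -0.24, adjusted p = 0.0825, edgeR), and the call was gained without GFP replicate 1 (adjusted p = 0.0333, edgeR). In A375, it was at 68.1, 66.4 and 79.5 CPM with GFP and at 64.6, 64.2 and 57.3 CPM with MAFG (log2 fold change -0.21, adjusted p = 0.921, edgeR). BAX took the highest TPM of the 10 genes in A375, 87.4 ± 9.72 with GFP (SD, n = 3).

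**Figure D3:**
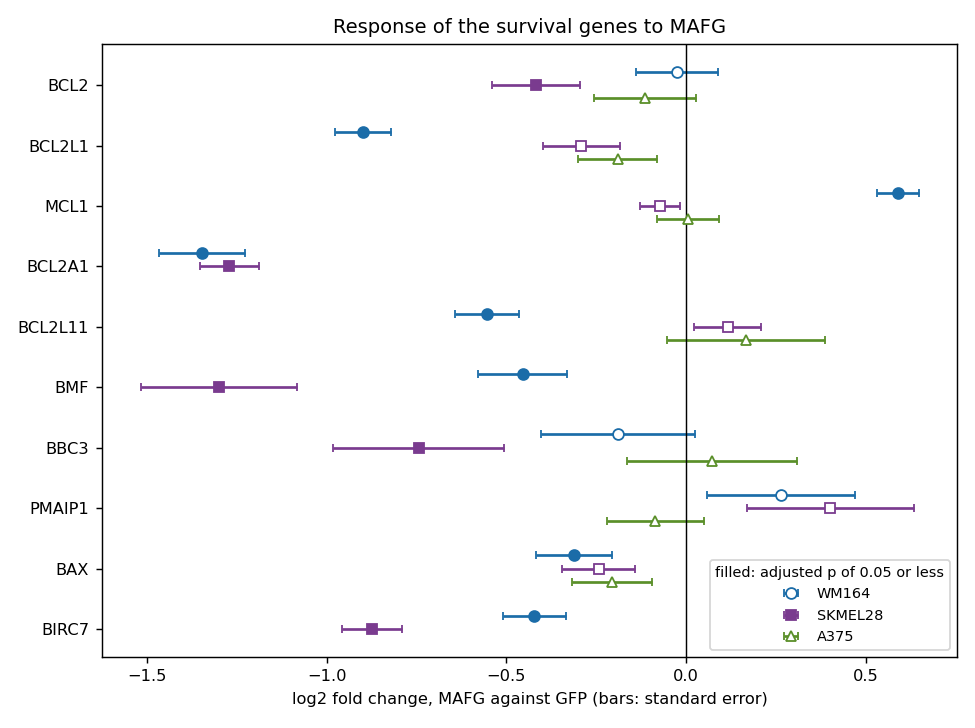
Log2 fold change of MAFG against GFP (x axis) for the tested genes in WM164 (circles), SKMEL28 (squares) and A375 (triangles), with bars of 1 standard error. Filled symbols have an adjusted p of 0.05 or less. BCL2A1 lies at -1.35 and -1.27 in the 2 lines that express it, and MCL1 at 0.59 in WM164 is the only filled symbol above 0.

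A call in 1 line and not in another does not test the difference, so the responses were compared as contrasts in a model of all 18 libraries. Between WM164 and SKMEL28, 3 of the 10 genes differed (adjusted p of 0.05 or less), beside 13.7% of all 18767 genes. MCL1 responded 0.66 log2 units higher in WM164 (standard error 0.09, adjusted p = 2.42e-05, edgeR) and BCL2L1 0.61 log2 units lower (-0.61, standard error 0.16, adjusted p = 0.0129, edgeR). BCL2L11 differed by -0.67 (standard error 0.20, adjusted p = 0.0301, edgeR). Between WM164 and A375, the same 3 of 8 genes with a value differed, beside 9.21% of all genes: MCL1 by 0.58 (adjusted p = 0.000131), BCL2L1 by -0.71 (adjusted p = 0.00384) and BCL2L11 by -0.72 (adjusted p = 0.0342, edgeR). These contrasts share the WM164 libraries. The MCL1 differences held under all 19 alternatives, and the BCL2L1 differences under all but the TPM scales. The BCL2L11 differences were lost without any of 8 libraries against SKMEL28 (adjusted p from 0.0505 to 0.0887, edgeR) and any of 7 against A375 (0.0552 to 0.0994), and on the log2(TPM + 1) scale the first was 0.10 (adjusted p = 0.877, limma). Between SKMEL28 and A375, 0 of 8 genes differed, beside 9.51% of all genes. Of these, BMF (-1.84, unadjusted p = 0.0109 from edgeR, adjusted p = 0.0863) and BBC3 (-0.82, unadjusted p = 0.026 from edgeR, adjusted p = 0.148) had an unadjusted p under 0.05, and DESeq2 called 1 gene, BMF (adjusted p = 0.0129). BMF also passed without A375 GFP replicate 2 or without A375 MAFG replicate 1 (adjusted p of 0.0429 and 0.0245, edgeR). The A375 side of this difference rests on few reads, 0, 9 and 6 counts of BMF with GFP and 3, 8 and 13 with MAFG. Leaving out a library moved the difference from -2.55 to -1.24.

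In cells overexpressing GFP, the levels of most of the 10 genes differed between lines, as did those of most genes. WM164 and SKMEL28 differed in 6 genes, beside 56.8% of all genes. BMF was 4.44-fold and BCL2L1 1.81-fold higher in WM164, whereas BCL2A1 was 3.01-fold, BCL2 2.11-fold, MCL1 1.54-fold and BAX 1.38-fold higher in SKMEL28 (adjusted p from 3.35e-09 to 0.00126, edgeR). The BCL2L1 difference missed the threshold on the TPM scales (adjusted p of 0.0563 and 0.0583, limma). WM164 differed from A375 in 8 genes, beside 71.5%, and SKMEL28 from A375 in 9, beside 68.6%. A375 had more of MCL1 (2.51-fold over WM164, 1.64-fold over SKMEL28), BCL2L1 (2.27-fold and 4.11-fold), BAX (3.91-fold and 2.83-fold) and PMAIP1 (4.58-fold and 3.89-fold). It had less BCL2L11, which was 4.52-fold higher in WM164 and 4.61-fold higher in SKMEL28, and less BMF, BCL2A1 and BIRC7. BBC3 did not pass in any of the 3 comparisons of GFP cells in counts. On log2(TPM + 1), it was lower in WM164 than in SKMEL28 (-0.64, adjusted p = 0.00403, limma) and than in A375 (-0.46, adjusted p = 0.0255, limma), and BCL2L11 (-0.71, adjusted p = 0.00969) and PMAIP1 (-0.46, adjusted p = 0.0317) were lower in WM164 than in SKMEL28, which they were not in counts. On this scale the median of all genes was itself at -0.42 for WM164 minus SKMEL28 and -0.35 for WM164 minus A375, against 0.00 and 0.08 in counts. BCL2 differed in SKMEL28 from A375 (2.06-fold higher) and not in WM164 from A375 (adjusted p = 0.799, edgeR). On the TPM scales the first of these was lost (adjusted p of 0.0553 and 0.108, limma) and BCL2 was lower in WM164 than in A375 (adjusted p of 0.00874 and 0.0103, limma).

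The known MITF targets among the 10 genes were set beside MITF and 9 pigment genes. In WM164, MITF fell from 422, 441 and 454 CPM to 280, 282 and 277 CPM (log2 fold change -0.65), and 9 of 9 tested genes of this list fell, with a median of -1.57. The most significant were MLANA (-2.41), DCT (-1.64), GPR143 (-1.95), PMEL (-1.46), TRPM1 (-2.01) and TYR (-1.55). In SKMEL28, MITF went from 656, 639 and 649 CPM to 553, 561 and 579 CPM (log2 fold change -0.20, adjusted p = 0.00967, edgeR), and 5 of 10 genes were lower and 1 higher, with a median of -0.14. The MITF response was 0.45 log2 units lower in WM164 than in SKMEL28 (-0.45, adjusted p = 0.0396, edgeR). BCL2A1 thus had a log2 fold change near that of the pigment genes in WM164 and below every one of them in SKMEL28, and BIRC7 changed by -0.42 and -0.87. BCL2 passed in SKMEL28 and not in WM164, a difference of 0.40 log2 units that itself did not pass (adjusted p = 0.186, edgeR).

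**Figure D4:**
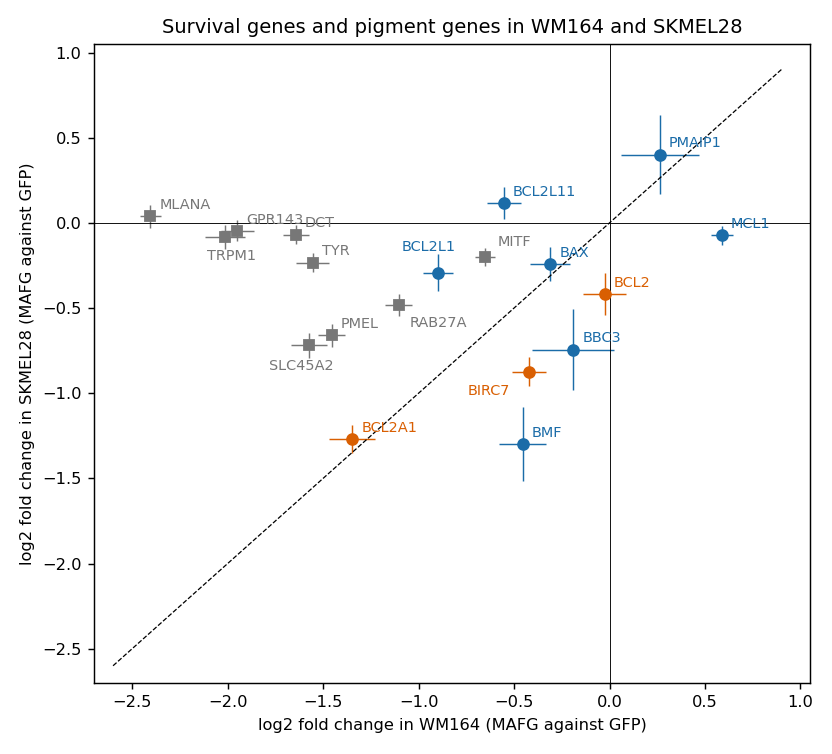
Log2 fold change of MAFG against GFP in WM164 (x axis) and SKMEL28 (y axis) for the known MITF targets BCL2, BCL2A1 and BIRC7 (orange), the 7 other survival genes (blue) and MITF with its pigment genes (grey squares), with bars of 1 standard error and a dashed line of equal change. BCL2A1 lies near the line at -1.35 and -1.27, while MLANA is at -2.41 in WM164 and 0.04 in SKMEL28.

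The rest of the death machinery is given by lists of known genes, to be read against the shares of all genes given above, 16.2% higher and 15.6% lower in WM164 and 14.6% higher and 15.3% lower in SKMEL28. Counts such as 1 of 9 or 1 of 10 are near or below these shares. Of the other BCL2 family genes, 1 of 10 tested was higher and 4 lower in WM164 (median log2 fold change -0.24), 0 of 11 higher and 6 lower in SKMEL28 (median -0.27), and 0 of 12 passed in A375 (median -0.05). None of them passed the 2-fold limit. Of the other BIRC genes and their antagonists, 0 of 8 were higher and 1 lower in WM164, and 1 of 9 was higher and 1 lower in SKMEL28 (medians 0.08 and 0.15). Of the caspases and apoptosome genes, 1 of 9 was higher and 1 lower in WM164, and 4 of 10 were higher and 1 lower in SKMEL28. The lower gene was CASP10, an initiator caspase (log2 fold change -1.21, standard error 0.41, adjusted p = 0.0365, edgeR). The 4 higher genes were CFLAR (0.81, adjusted p = 5.48e-07, edgeR), CASP8 (0.46), APAF1 (0.44) and CYCS (0.21). CFLAR encodes a regulator of caspases and is not a caspase itself. The caspase list had medians of 0.04 and 0.10. Of the p53 targets, 7 of 15 were higher and 3 lower in WM164 (median 0.35), and 1 of 16 was higher and 3 lower in SKMEL28 (median -0.10). Of the MAPK output genes, 8 of 12 were higher and 2 lower in WM164 (median 0.22), against 2 higher and 5 lower in SKMEL28 (median -0.11) and 1 higher in A375. Of the NF-kB targets, 4 of 7 were higher in WM164, where TRAF1, an adaptor of TNF receptors, rose by 3.68 log2 units (adjusted p = 1.98e-16, edgeR), and 3 of 9 were higher and 4 lower in SKMEL28 (medians 0.21 and -0.34). In A375, 0 of 9 BIRC and antagonist genes, 0 of 10 caspases and apoptosome genes, 0 of 16 p53 targets (median -0.20) and 0 of 3 MITF and pigment genes passed, and 1 of 9 NF-kB targets was higher.

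For the 3 MITF targets, the genes with the most similar profile over the 6 conditions were sought among 18757 genes, by the root mean square difference of centred mean log2(CPM + 1). BCL2A1 was closest to CTSK, the protease cathepsin K (0.21 log2 units), then MDGA1 (0.25) and RAB11FIP4 (0.32). BIRC7 was closest to LGALS3, which encodes galectin-3 (0.22), then RIPK4 (0.27) and CTTNBP2 (0.30). These genes were also low in A375, at 7.82, 0.275 and 0.0171 CPM with GFP, but fell less with MAFG in SKMEL28 than BIRC7. There LGALS3 went from 313 to 266 CPM, RIPK4 from 51.0 to 46.1 and CTTNBP2 from 27.5 to 25.1, against 36.5 to 19.9 for BIRC7. BCL2 was closest to CLUL1 (0.036), G3BP2 (0.043) and AC016705.1 (0.043), of which CLUL1 and AC016705.1 were below 1 CPM in all conditions.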

How the data were processed

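The 18 RNA-seq libraries were grouped by line and overexpressed gene from the labels, with 3 per condition. Per the methods, adapters were removed with cutadapt, STAR was used for alignment to GRCh38 and featureCounts for gene counts from unique alignments. The deposited counts are whole numbers without normalization. The deposited TPM values have the same sum in each library and are rounded. The methods name RSEM for TPM after a sentence on an earlier dataset of melanoma cell lines, so whether it made these values is not clear. The submitters' processing notes name cutadapt 1.8.1, STAR 2.7.7a, RSEM 1.3.0 and DESeq2. The labels name a non-stranded kit and the methods a strand-specific one, so the use of strand in counting is not known, and reads of exons shared with an opposite gene could be affected.

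MAFG was compared with GFP in each line on the counts of its 6 libraries with edgeR 4.0.16 in R 4.3.3 (TMM, filterByExpr, quasi-likelihood F test, Benjamini-Hochberg adjustment over all tested genes), and lines were compared in a model of all 18 libraries. The threshold was an adjusted p of 0.05. The standard error is the absolute log2 fold change divided by the square root of F. Alternatives were DESeq2 1.42.0, its size factors in edgeR, no filter, a minimum of 10 counts per library, the replicate block, the 18-library model, limma 3.58.1 on log2(TPM + 1) and log2(TPM + 0.1) of genes with at least 1 TPM in 3 libraries, a 2-fold limit, and each library left out in turn. The scripts were tested on simulated data. Genes that never exceeded 3 counts in a condition were at the floor, and their folds are bounds that cover counting error only. Genes outside the 10 were named if called with a fold above 2, at most 6 per list by smallest adjusted p, or if closest to an MITF target. ADAMTSL4, MIR4435-2HG and ABALON were named for their overlap with exons of the 10 genes, after their values were seen. CFLAR, CASP8, APAF1 and CYCS were also named after their values were seen. Positions are from GENCODE, promoters from RefSeq. The genes and lists were chosen with earlier results of these data known. Figures were drawn with matplotlib 3.10.9.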

Additional observations from a re-analysis of the deposited data

Results flagged for a closer look

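The response to MAFG differed between lines for 3 genes, by a contrast of the log2 fold changes in the model of all 18 libraries. For MCL1 the response in WM164 exceeded that in SKMEL28 by 0.66 and that in A375 by 0.58. For BCL2L1 the response in WM164 minus that in SKMEL28 was -0.61, and minus that in A375 -0.71. For BCL2L11 these differences were -0.67 and -0.72. The contrasts share the WM164 libraries, and the BCL2L11 differences were lost when any of several libraries was left out. The BCL2L1 differences were lost on the TPM scales. On log2(TPM + 1) they were -0.16 against SKMEL28 and -0.24 against A375 (adjusted p of 0.529 and 0.375, limma).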

How the results depend on the processing

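In WM164, the number of the 10 genes called was 7 with edgeR, 1 with the 2-fold limit and 3 on either TPM scale. In SKMEL28 it was 5, and 2 with the 2-fold limit. For the response difference of WM164 and SKMEL28 it was 3, and 5 with DESeq2. For WM164 and A375 it was 3, and 1 on either TPM scale. For SKMEL28 and A375 it was 0, and 1 with DESeq2, on log2(TPM + 0.1) and with no filter on low counts. With a library left out it was 0 to 1, the 1 being without A375 GFP replicate 2 or without A375 MAFG replicate 1. Each time the 1 gene was BMF, with at most 13 counts in an A375 library. For GFP cells of WM164 and A375 the number called was 8, and 5 with a minimum of 10 counts per library, which leaves fewer genes to test. Over all alternatives this number was 5 to 10. For GFP cells of WM164 and SKMEL28 it was 6 and ranged from 4 to 9, and for SKMEL28 and A375 it was 9 and ranged from 6 to 9. Shares of all genes called are given above for the main test and the 2-fold limit, and not for the other settings. A count that moved under those settings therefore cannot be told apart from a setting that calls more or fewer of all genes. The TPM scales shifted the median of all genes to 0.14 and 0.16 in WM164, -0.14 and -0.17 in SKMEL28 and -0.10 and -0.12 in A375, each for a pseudocount of 1 and of 0.1.

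Of the values whose sign turned, the BCL2L11 response difference of WM164 and SKMEL28 was the only one that passed the edgeR test. On log2(TPM + 0.1) and log2(TPM + 1), in this order, BBC3 in WM164 was 0.17 and 0.11, BCL2L11 in SKMEL28 -0.24 and -0.22, MCL1 in A375 -0.0906 and -0.0887 and BBC3 in A375 -0.0976 and -0.0743. Relative to the shifted median these values were 0.01 and -0.03, -0.08 and -0.08, 0.03 and 0.01, and 0.02 and 0.03. The WM164 minus SKMEL28 differences were 0.27 and 0.34 for BCL2A1, 0.0941 and 0.0970 for BCL2L11, 0.18 and 0.0911 for PMAIP1 and 0.12 and 0.12 for BAX. The WM164 minus A375 differences were 0.27 and 0.18 for BBC3 and 0.15 and 0.15 for BAX. The SKMEL28 minus A375 differences were 0.13 and 0.0044 for BCL2 and 0.0331 and 0.0380 for BAX. The cause was not tested. MCL1 in A375 was -0.001 with DESeq2 and -0.0001 with its size factors. In GFP cells, BCL2L11 of WM164 minus SKMEL28 was 0.0124 with that minimum and 0.0008 with no filter, and BCL2 of WM164 minus A375 was 0.0018 with the minimum.

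Leaving out a library gave -0.10 to 0.0109 for BCL2 in WM164, -0.01 to 0.0206 for MCL1 and -0.0761 to 0.29 for BBC3 in A375. The differences were -0.37 to 0.0612 for PMAIP1 and -0.13 to 0.0256 for BAX in WM164 minus SKMEL28, and -0.20 to 0.0124 for BCL2L1, -0.20 to 0.10 for BCL2L11 and -0.13 to 0.0268 for BAX in SKMEL28 minus A375. In GFP cells they were -0.12 to 0.0731 for BCL2L11 and -0.10 to 0.0251 for BIRC7 in WM164 minus SKMEL28, and -0.0803 to 0.0345 for BCL2 and -0.29 to 0.0831 for BBC3 in WM164 minus A375.

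Same-numbered libraries correlated at -0.16 to 0.06 in their deviations from the group means, and differently numbered ones at -0.12 to 0.22. No pairing by number was seen, although 3 libraries per condition cannot exclude it. With a replicate block the counts stayed at 7, 5 and 0 in the lines, and the BCL2L11 differences, -0.67 and -0.72, lost their calls (adjusted p of 0.0822 and 0.0963, edgeR).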
